A study of Mus musculus with 13 samples.

Results

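Death receptors and tumour necrosis factor (TNF) ligands were followed as 10 genes in bulk mammary gland RNA of the mouse. The members were the ligands Tnf, Fasl, Tnfsf10 and Tnfsf12 and the receptors Tnfrsf1a, Tnfrsf1b, Fas, Tnfrsf10b, Tnfrsf12a and Tnfrsf11b, taken by symbol. All 10 had a row in both deposited expression tables, out of 23951 genes. Whole flash-frozen glands of female mice were sequenced from 2 genotypes at 2 stages, day 7 of lactation and day 2 of involution, the regression of the gland after lactation. KO glands came from mice with a conditional deletion of the Janus kinase gene Jak1, and Con glands from wild-type controls. There were 3 Con and 3 KO libraries at lactation, and 3 Con and 4 KO libraries at involution. The Cre driver, the cells in which Jak1 was deleted, the strain and the age of the mice were not given in the sources used here. Values are FPKM (fragments scaled to transcript length and sequencing depth), one table for each stage.

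TNF family ligands are trimeric proteins of the cell surface, some of them shed by proteases, and each binds one or a few receptors of the TNF receptor family. The receptors TNFR1 (from Tnfrsf1a), FAS and the mouse TRAIL receptor (from Tnfrsf10b) carry a death domain in the cytoplasm, through which adaptor proteins recruit caspases or, for TNFR1, also the kinases that activate NF-kB. TNFR2 (from Tnfrsf1b) and FN14 (from Tnfrsf12a) lack that domain and bind TRAF adaptors, and osteoprotegerin (from Tnfrsf11b) is a secreted decoy receptor. In the mammary gland, the early days of involution are known for the death and shedding of milk-secreting epithelial cells. JAK1 relays signals of many cytokine receptors to STAT transcription factors.

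The gland markers fitted the tissue label in part. Luminal epithelial markers Krt8 and Krt18 were at 27.5 FPKM or more in every library, but the casein gene Csn2 was listed at 0 in all 13. So were the milk protein genes Csn1s1, Csn1s2b and Wap. Csn3 was listed at 0 in every lactation library only. Csn1s2a read 20351 to 41984 FPKM in Con involution glands and was listed at 0 in all other groups. A 0 in these tables can thus be a failed estimate, can line up with stage or genotype, and is reported only as listed at 0. Jak1 itself did not separate the genotypes. It ranged from 6.18 to 14.2 FPKM in Con and from 9.51 to 11.2 in KO at lactation, and from 24.0 to 24.6 in Con and from 17.3 to 26.3 in KO at involution, so its level in whole tissue gave no check of the genotype labels. The Con lactation library of mouse M44175 had a total of 871630 FPKM, against 312976 to 421592 in the other 5 of that stage. The Con lactation library of mouse M43768 had the highest summed lymphocyte markers of all 13, with 26.9 FPKM over T and NK cell genes and 35.3 over B cell genes. Relative sequencing depth ranged from 0.723 to 1.29 within the lactation table and from 0.485 to 1.50 within the involution table. In whole tissue, fewer cells of a type and less RNA per cell cannot be told apart.

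The sequence just before the transcription start is shown for 4 receptors. Tnfrsf1a, Tnfrsf1b and Fas are shown because they hold a match to a STAT-type motif, and JAK1 acts through STAT proteins. Tnfrsf12a is shown because it had the largest difference between stages and no match to any motif searched. RefSeq promoter sequences (build GRCm38.p6) matched 7 of the 10 members, all but Tnfrsf10b, Tnfsf12 and Tnfrsf11b. Each line gives the 250 bases before the start, 5′ to 3′ on the strand of the gene, with motif matches in capitals.
Tnfrsf1a, chr6:125349473-125349722, plus strand: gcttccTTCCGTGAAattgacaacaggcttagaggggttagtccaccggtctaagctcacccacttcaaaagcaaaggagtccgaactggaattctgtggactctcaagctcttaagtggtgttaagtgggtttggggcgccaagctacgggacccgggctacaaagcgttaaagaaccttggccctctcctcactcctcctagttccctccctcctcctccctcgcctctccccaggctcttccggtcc
Tnfrsf1b, chr4:145246871-145247120, minus strand: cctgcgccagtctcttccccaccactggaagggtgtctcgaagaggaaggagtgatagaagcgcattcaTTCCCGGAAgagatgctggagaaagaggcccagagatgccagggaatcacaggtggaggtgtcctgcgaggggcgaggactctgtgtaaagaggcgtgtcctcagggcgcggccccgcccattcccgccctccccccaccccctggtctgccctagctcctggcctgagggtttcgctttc
Fas, chr19:34290409-34290658, plus strand: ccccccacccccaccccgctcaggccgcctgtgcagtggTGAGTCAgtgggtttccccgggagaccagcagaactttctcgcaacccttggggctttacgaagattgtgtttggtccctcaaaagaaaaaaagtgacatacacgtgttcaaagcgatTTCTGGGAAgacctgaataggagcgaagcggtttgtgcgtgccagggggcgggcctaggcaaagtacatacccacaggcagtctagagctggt
Tnfrsf12a, chr17:23677450-23677699, minus strand: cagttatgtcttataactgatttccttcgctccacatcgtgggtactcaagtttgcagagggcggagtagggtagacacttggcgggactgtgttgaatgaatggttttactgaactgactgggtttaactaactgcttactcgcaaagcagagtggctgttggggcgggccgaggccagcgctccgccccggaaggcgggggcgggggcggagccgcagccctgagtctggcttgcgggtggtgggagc
The motifs searched on both strands were the STAT type TTCNNNGAA, the AP-1 type TGANTCA, the C/EBP type TTGCNNAA and the NF-kB site. In Tnfrsf1a the STAT match lay 244 to 236 bases before the start, in Tnfrsf1b 181 to 173 bases and in Fas 93 to 85 bases, and Fas also held an AP-1 match 211 to 205 bases before the start. The matches in these promoters did not overlap each other. No match was found in Tnf, Fasl, Tnfsf10 or Tnfrsf12a. Over 32851 promoters of the same length, 7.02% held the STAT type, 6.75% the AP-1 type, 9.56% the C/EBP type and 7.25% the NF-kB site. A match describes letters only.

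Several of these genes rose from lactation to involution. Relative to the typical gene, the ligand Tnfsf12 and the receptors Tnfrsf12a and Tnfrsf10b passed the test in both genotypes, each higher at involution at an adjusted p under 0.05. Tnfrsf1a passed the test in Con glands. Tnf passed it in both genotypes and Tnfrsf1b in KO glands, but both entered it through involution libraries alone, and Tnfrsf10b through those and 1 lactation library, so these calls are values and no support for a rise. Over all 12667 genes tested between stages, 19.4% were called higher in Con and 22.2% in KO glands. The members were chosen with earlier results of these data known, so the calls are not read as a trait of the family. No tested member (5 of 10 at lactation, 8 of 10 at involution) passed the test between KO and Con glands. Of these, only the groups of Tnfrsf1a at lactation did not overlap, beside 5.75% of all genes tested at that stage. Fasl and Tnfrsf11b were too low to test, with at most 1 library at or above 1 FPKM.

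The stage comparison asks how the glands changed from milk secretion to regression. The typical gene read 2.42-fold higher in the involution table, which is called the table factor below. A difference in scale between the tables and a real change shared by most genes cannot be told apart here. A single factor per library, the median of its ratios over genes, was therefore divided out over all 13 libraries before the test, and every stage difference below is a log2 difference of (rescaled FPKM + 1) with its standard error (SE). Levels are FPKM as deposited, each on its own table's scale. In Con glands 5 of the 8 tested members were called higher and none lower, beside 19.4% of 12667 genes that rose, 11.2% that fell and 30.6% called in all. In KO glands 5 of 8 were called higher and none lower, beside 22.2% of genes that rose, 12.5% that fell and 34.7% called in all. The median difference over the tested members was 1.07 in Con and 0.88 in KO, against 0.17 and 0.19 over all genes. Tnf, Tnfrsf1b and Tnfrsf10b passed the filter on low values (1 FPKM in at least 3 libraries) only, or but for 1 library, through the involution glands, so they had to differ between the tables. After rescaling, every involution library was above every lactation library for 4 tested members in Con (among them Tnfrsf10b) and 7 in KO (among them all 3 of these genes), where 27.0% and 29.2% of all genes showed such a gap. Because of that filter, none of these counts, medians and gaps is given as support.

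**Figure D1:**
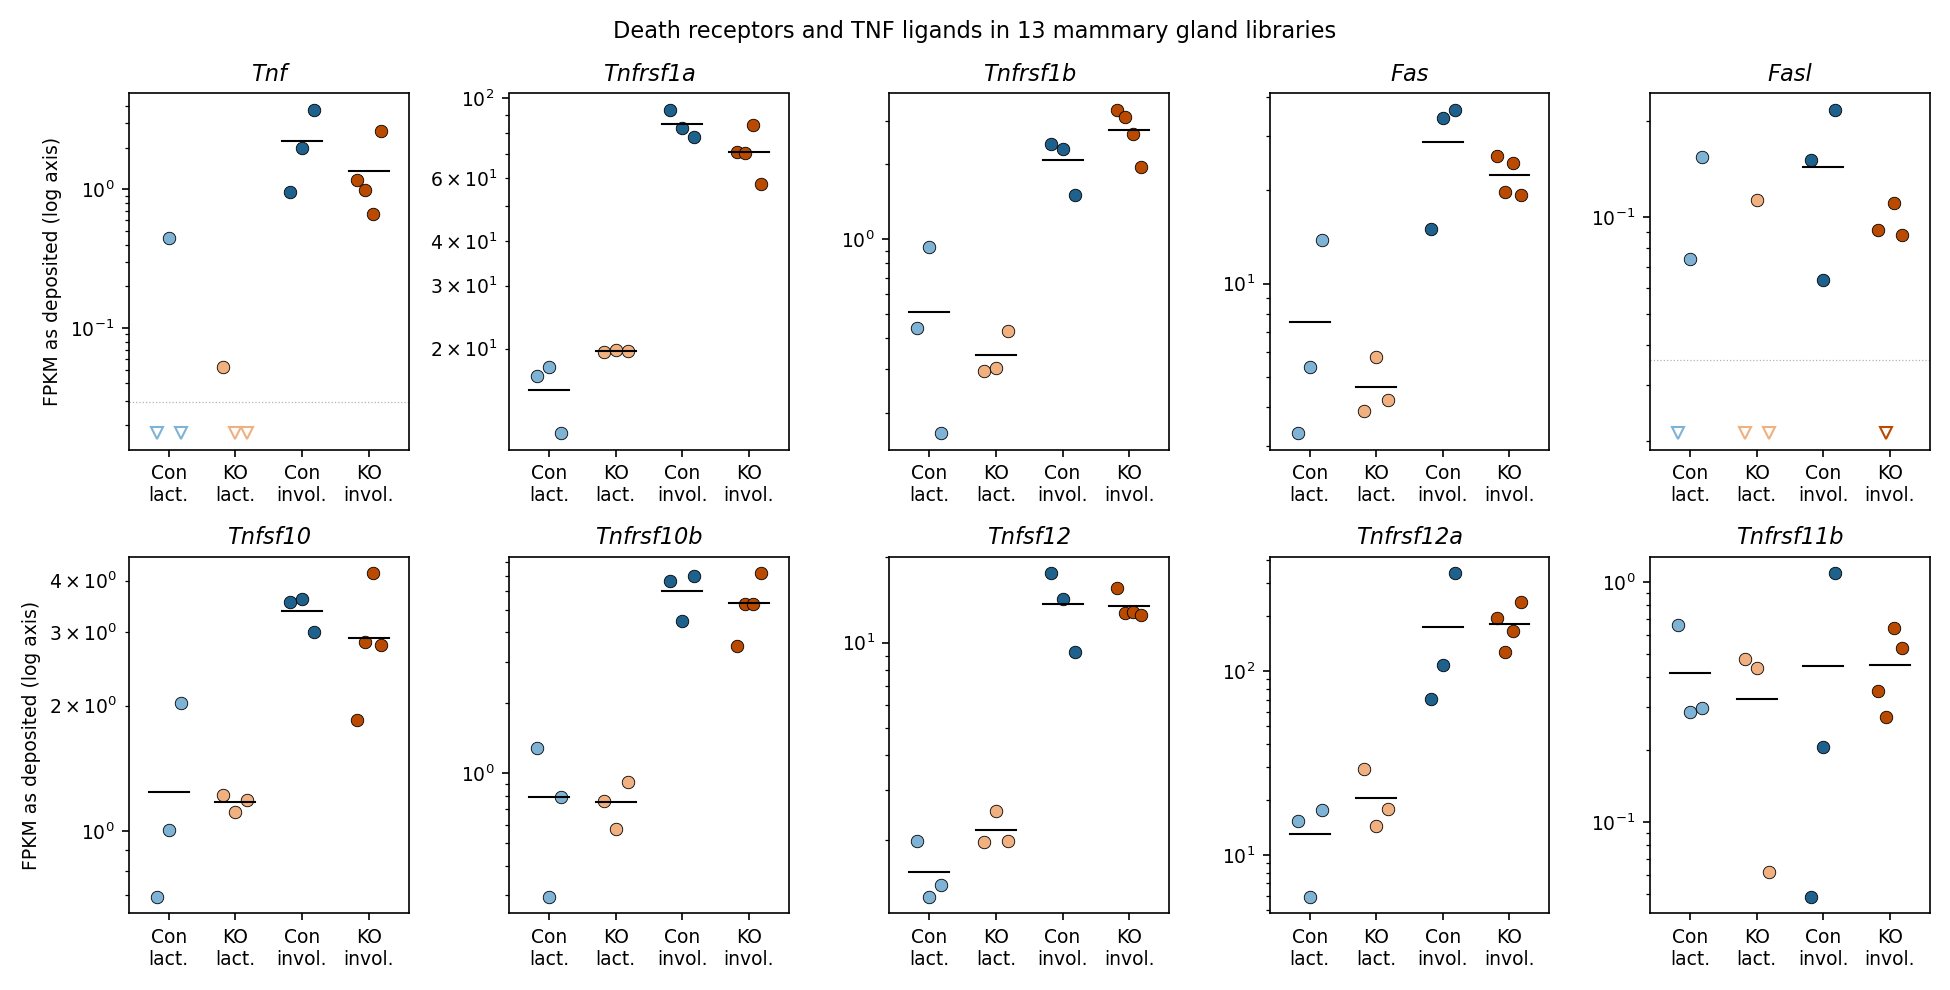
FPKM as deposited (log axis, a separate scale for each gene) of the 10 members in the 13 libraries, 1 point per library, with a black line at the group mean where no library is listed at 0. Open triangles below the dotted line are libraries listed at 0, which concerns Tnf and Fasl, and the 2 stages come from tables that differ by a factor of 2.42 for the typical gene.

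Among the ligands, Tnf (chromosome 17), the founding cytokine of the family, was at the edge of detection at lactation. It was listed at 0, 0.447 and 0 FPKM in the 3 Con lactation libraries and at 0.0522, 0 and 0 in the 3 KO ones. At involution it reached 0.964, 1.99 and 3.75 FPKM in Con and 1.16, 0.991, 0.667 and 2.62 in KO. The single Con lactation library well above 0, of mouse M43768, is the one with the highest lymphocyte markers; their part in the Tnf value was not tested. All 7 involution libraries were above all 6 lactation libraries on the deposited scale. The fitted difference was 0.96 ± 0.30 in Con (adjusted p = 0.0287, limma) and 0.86 ± 0.28 in KO (adjusted p = 0.0324). After rescaling, the Con groups overlapped, through that library of mouse M43768. The size for so low a gene depends on the constant added before the logarithm, and with 0.1 in place of 1 it read 2.77 and 2.90. The Con call was lost without the lactation library of mouse M42186 (adjusted p = 0.0808) or M44175 (0.0885) and without the involution library of mouse M43768 (0.0682) or M43914 (0.103). The KO call was lost without any of the 3 KO lactation libraries (0.0683 to 0.0835) and without the involution library of mouse M43196 (0.0544) or M44440 (0.0810).

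Fasl (chromosome 1), the ligand of FAS made mainly by cytotoxic lymphocytes, stayed at or below 0.217 FPKM in every library. Its values step by whole fragments, so relative fragment numbers could be read from them. Here 0 stands for a library listed at 0. The numbers were 0, 1 and 2 fragments in the Con and 0, 2 and 0 in the KO lactation libraries. At involution they were 4, 1 and 5 in the Con and 1, 0, 3 and 3 in the KO libraries. The groups overlapped, and no difference was detectable at this depth.

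Tnfsf10 (chromosome 3) encodes TRAIL, the ligand of the death receptor TNFRSF10B. It measured 0.693, 1.00 and 2.03 FPKM in Con and 1.22, 1.11 and 1.19 in KO glands at lactation. At involution it measured 3.55, 3.61 and 3.00 in Con and 1.84, 2.84, 4.17 and 2.80 in KO. The highest lactation value was again in a single library, that of mouse M44175. The stage difference was 0.19 ± 0.23 in Con (adjusted p = 0.545) and -0.01 ± 0.21 in KO (adjusted p = 0.985), so no difference of Tnfsf10 from the typical gene was detected. With each table rescaled within itself, which leaves the table factor in, it read 1.02 in Con and 0.81 in KO.

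Tnfsf12 (chromosome 11) encodes TWEAK, the ligand of FN14. It measured 1.99, 1.26 and 1.39 FPKM in Con and 1.98, 2.54 and 1.98 in KO glands at lactation, then 17.6, 14.3 and 9.29 in Con and 15.6, 12.7, 12.9 and 12.5 in KO at involution. The stages did not overlap, and after rescaling the lowest involution library (5.86, mouse M43914) still lay above the highest lactation library (4.14, a KO gland). The difference was 1.51 ± 0.23 in Con (adjusted p = 5.46e-04) and 1.14 ± 0.22 in KO (adjusted p = 0.00202), the smallest adjusted p of any tested member in both genotypes. In the GENCODE M21 annotation the locus is shared with the read-through gene Tnfsfm13 on the same strand and with Tnfsf13os on the other, so how reads were divided among these genes is uncertain.

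Of the receptors with a death domain, Tnfrsf1a (chromosome 6), the main receptor for soluble TNF, had the highest group median at lactation, although Fas read higher in the Con library of mouse M44175. It measured 16.8, 17.8 and 11.6 FPKM in Con and 19.6, 19.8 and 19.7 in KO glands. At involution it measured 92.9, 82.8 and 78.0 in Con and 70.8, 70.3, 84.3 and 57.7 in KO. The stages did not overlap in either genotype. The difference was 1.18 ± 0.22 in Con (adjusted p = 0.00188) and 0.53 ± 0.20 in KO (adjusted p = 0.0599). The KO difference passed the threshold without the Con lactation library of mouse M44175 (adjusted p = 0.0134), which enters through the shared estimate of spread, or without the KO involution library of mouse M44440 (0.0473).

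Fas (chromosome 19), the receptor for FASL, varied widely among the control glands. At lactation it measured 3.29, 5.37 and 13.9 FPKM in Con and 3.88, 5.80 and 4.20 in KO, and at involution 15.0, 34.2 and 36.4 in Con and 25.9, 19.7, 24.5 and 19.4 in KO. The lactation value of mouse M44175 lay near the lowest involution value, that of mouse M44448, and above it after rescaling. The difference was 0.75 ± 0.38 in Con (adjusted p = 0.156) and 0.91 ± 0.36 in KO (adjusted p = 0.0681). Without the Con lactation library of mouse M44175 the Con difference was 1.20 (adjusted p = 0.0170) and the KO difference passed the threshold too (adjusted p = 0.0209), as it did without the Con lactation library of mouse M42186 (0.0413) or the Con involution library of mouse M44448 (0.0460).

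Tnfrsf10b (chromosome 14) is the death receptor for TRAIL in the mouse. It measured 1.28, 0.294 and 0.787 FPKM in Con and 0.762, 0.577 and 0.919 in KO glands at lactation, and 6.66, 4.46 and 6.96 in Con and 3.51, 5.31, 5.30 and 7.17 in KO at involution. In recovered fragments, which compare within this gene, these were 7 to 44 at lactation and 68 to 431 at involution. Fragments carry the scale and depth of each table, and after rescaling the closest libraries, the KO involution library of mouse M43196 and the Con lactation library of mouse M42186, read almost alike at 2.30 and 2.15. The difference was 1.19 ± 0.28 in Con (adjusted p = 0.00773) and 1.01 ± 0.26 in KO (adjusted p = 0.0108). It passed the threshold under all 20 alternatives in both genotypes, as did Tnfsf12. Unlike Tnfsf12, Tnfrsf10b reached 1 FPKM in 1 lactation library and 7 involution libraries. Because of that filter, its calls under these settings are no support for a rise.

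Of the receptors without a death domain, Tnfrsf1b (chromosome 4) binds mainly membrane-bound TNF and is known from blood cells and endothelium. It measured 0.441, 0.930 and 0.166 FPKM in Con and 0.295, 0.304 and 0.427 in KO glands at lactation. At involution it measured 2.43, 2.32 and 1.50 in Con and 3.32, 3.12, 2.65 and 1.96 in KO. The highest lactation value was in the lymphocyte-rich library of mouse M43768. The difference was 0.42 ± 0.24 in Con (adjusted p = 0.193) and 0.86 ± 0.22 in KO (adjusted p = 0.0107). Without that library of mouse M43768 the Con difference was 0.69 (adjusted p = 0.0376).

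Tnfrsf12a (chromosome 17), the TWEAK receptor FN14 known as a gene of injured and remodelling tissue, had the largest stage difference. It measured 15.4, 5.91 and 17.6 FPKM in Con and 29.4, 14.4 and 17.8 in KO glands at lactation. At involution it measured 70.9, 107.3 and 340.3 in Con and 195, 126.7, 164 and 238 in KO. The Con involution glands spread widely, with mouse M43914 highest and mouse M44448 lowest. The difference was 2.22 ± 0.51 in Con (adjusted p = 0.00701) and 1.85 ± 0.48 in KO (adjusted p = 0.0113). The KO call was lost, at the threshold itself, without the KO lactation library of mouse M42734, where the difference was 1.63.

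Tnfrsf11b (chromosome 15), the decoy that binds RANKL and TRAIL, was low throughout. It measured 0.662, 0.287 and 0.298 FPKM in Con and 0.475, 0.438 and 0.0615 in KO glands at lactation, and 0.0486, 0.205 and 1.09 in Con and 0.352, 0.275, 0.643 and 0.530 in KO at involution. The fragments behind these values numbered 2 to 20 at lactation and 2 to 39 at involution. Both the lowest and the highest value were in Con involution glands, and all groups overlapped.

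**Figure D2:**
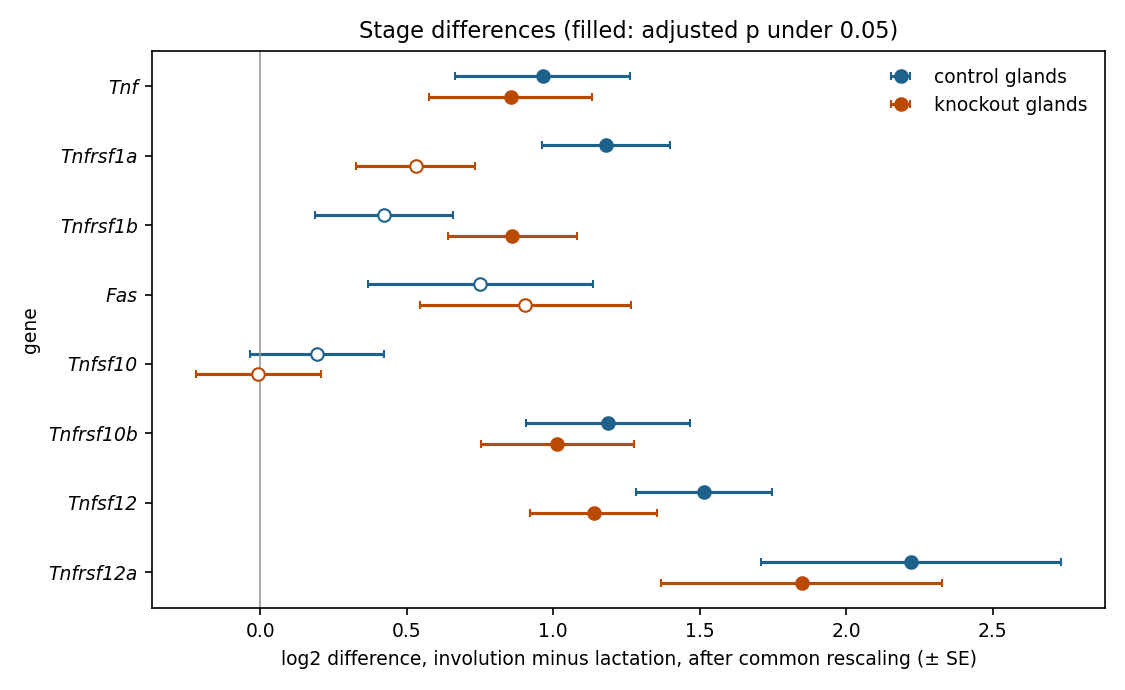
Involution minus lactation for the 8 tested members as log2 differences of (rescaled FPKM + 1), with bars of 1 SE, in Con (blue) and KO glands (orange); filled points have an adjusted p under 0.05. Tnfrsf12a lies farthest right at 2.22 and 1.85, and Tnfsf10 lies at 0.19 and -0.01.

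The knockout comparison asks which genes depend on Jak1 at each stage; Jak1 itself overlapped between the genotypes, so directions rest on the labels. At lactation none of the 5 tested members was called, beside 0.0105% of 9560 genes, which is 1 gene. Tnfrsf12a was 0.75 ± 0.41 log2 units higher in KO, Tnfrsf1a 0.42 ± 0.25 higher, Tnfsf12 0.36 ± 0.20 higher, Tnfsf10 0.04 ± 0.21 higher and Fas 0.35 ± 0.39 lower (-0.35), all with an adjusted p of 0.998. Without the library of mouse M44175 the Fas value was 0.10. Tnfrsf1a was the only tested member whose groups did not overlap, with 19.6 to 19.8 FPKM in KO above 11.6 to 17.8 in Con, and 5.75% of all genes had groups apart in either direction. At an unadjusted p under 0.05 there were 228 genes and no member.

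At involution none of the 8 tested members was called and none had groups apart, beside 0.0719% of 12509 genes called (9 genes) and 6.81% apart. KO minus Con was 0.38 ± 0.49 for Tnfrsf12a, 0.30 ± 0.19 for Tnfrsf1b and 0.03 ± 0.22 for Tnfsf12. It was -0.41 ± 0.35 for Tnf, -0.24 ± 0.18 for Tnfrsf1a, -0.23 ± 0.29 for Fas, -0.17 ± 0.21 for Tnfsf10 and -0.14 ± 0.23 for Tnfrsf10b. Adjusted p-values ran from 0.924 to 0.998, and no member was among the 855 genes at an unadjusted p under 0.05. For Tnfrsf12a the value rests on the Con glands: mouse M43914 alone, at 340.3 FPKM, was above all 4 KO glands, and the other 2 Con glands were below all of them. Without mouse M43914 the difference was 1.02, and without mouse M44448 it was -0.071.

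Whether the knockout effect itself differed between stages was tested as the difference of both effects in a single model. None of the 8 tested members was called, beside 0.0711% of 12667 genes (9 genes), and every member had an adjusted p of 1.0. The farthest was Tnfrsf1a at -0.65 ± 0.30 (unadjusted p = 0.04895, limma), which is also the test of its unequal rise in the 2 genotypes and did not pass adjustment; 384 genes had an unadjusted p under 0.05. The others were 0.44 for Tnfrsf1b, 0.15 for Fas, -0.11 for Tnf, -0.17 for Tnfrsf10b, -0.20 for Tnfsf10, -0.37 for Tnfrsf12a and -0.38 for Tnfsf12. So the stage calls of Tnfrsf1a in Con alone and of Tnfrsf1b in KO alone were not shown to differ between genotypes.

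**Figure D3:**
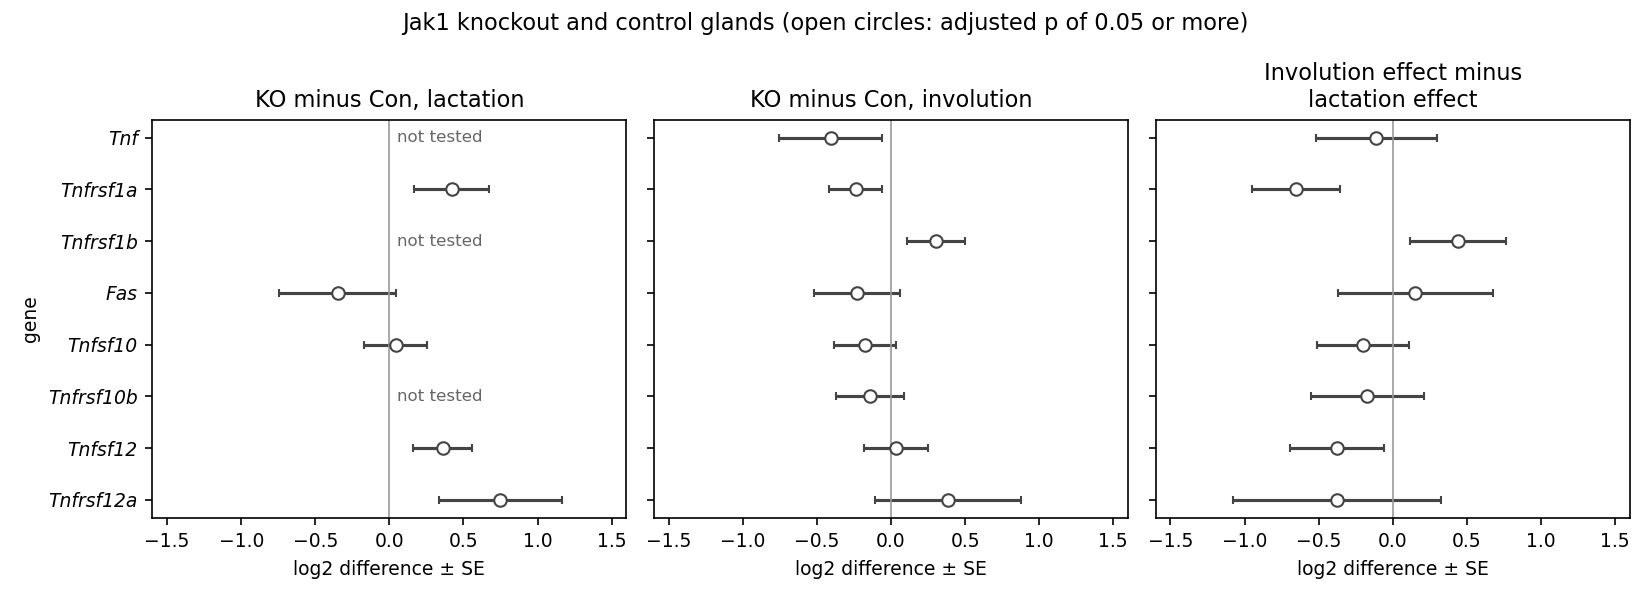
KO minus Con at lactation, at involution, and the difference of both, as log2 differences of (rescaled FPKM + 1) with bars of 1 SE; genes under the filter at lactation are marked as not tested. All circles are open, since no member had an adjusted p under 0.05, and Tnfrsf1a at -0.65 in the right panel lies farthest from 0 for its error.

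FPKM is per length, so levels can be ordered between genes within a table. In Con lactation glands the medians ran from Tnfrsf1a (16.8 FPKM) and Tnfrsf12a (15.4) over Fas (5.37) to Tnfsf12 (1.39), Tnfsf10 (1.00), Tnfrsf10b (0.787), Tnfrsf1b (0.441) and Tnfrsf11b (0.298), then Fasl (0.0743) and Tnf (listed at 0). Only the steps from Fas to Tnfsf12 and from Tnfrsf11b to Fasl were wider than the spread between mice. In KO lactation glands Tnfrsf1a (19.7) and Tnfrsf12a (17.8) again overlapped at the top, and each step from there down to Tnfrsf10b separated the ranges. At involution Tnfrsf12a came first, with medians of 107.3 in Con and 179.7 in KO, ahead of Tnfrsf1a at 82.8 and 70.6. These 2 overlapped in Con and were apart in KO. Fas (34.2 and 22.1), Tnfsf12 (14.3 and 12.8) and Tnfrsf10b (6.66 and 5.30) followed in both genotypes, with the ranges of Fas and Tnfsf12 overlapping in Con. Tnfrsf10b stood above Tnfsf10 in both, with ranges apart in Con. Receptors thus filled the first 3 places at each stage, and Fasl and Tnfrsf11b were last at involution.

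A rank inside one library is untouched by a factor between tables, but it depends on how many low genes are detected, and 14546 to 15327 genes were above 0 at lactation against 16204 to 17373 at involution. Among genes above 0, Tnfrsf12a moved from percentiles 72.7 to 92.9 at lactation to 94.0 to 98.2 at involution, and Tnfrsf1a from 80.4 to 91.0 to 92.7 to 95.3, in both cases without overlap. Tnfsf12 moved from 40.6 to 55.5 to 64.9 to 78.7, and Tnfrsf10b from 19.5 to 42.2 to 44.7 to 60.9. Fas went from 61.5 to 82.5 to 75.8 to 87.6 and Tnfrsf1b from 13.7 to 35.5 to 33.3 to 43.6, both with overlap. Tnfsf10 stayed between 32.0 and 51.0 at lactation and 33.8 and 48.7 at involution, and Tnfrsf11b between 6.90 and 31.3 and between 4.96 and 29.3. Over a fixed set of 12988 genes above 0 in all libraries, the stages stayed apart for Tnfrsf12a (69.1 to 91.9 against 92.6 to 97.9), Tnfrsf1a (78.5 to 89.7 against 91.1 to 94.3) and Tnfsf12 (32.8 to 49.1 against 56.0 to 72.8). Tnfrsf10b touched in that set, with 11.2 to 32.8 against 32.4 to 49.2, and Fas, Tnfrsf1b and Tnfsf10 overlapped there too.

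**Figure D4:**
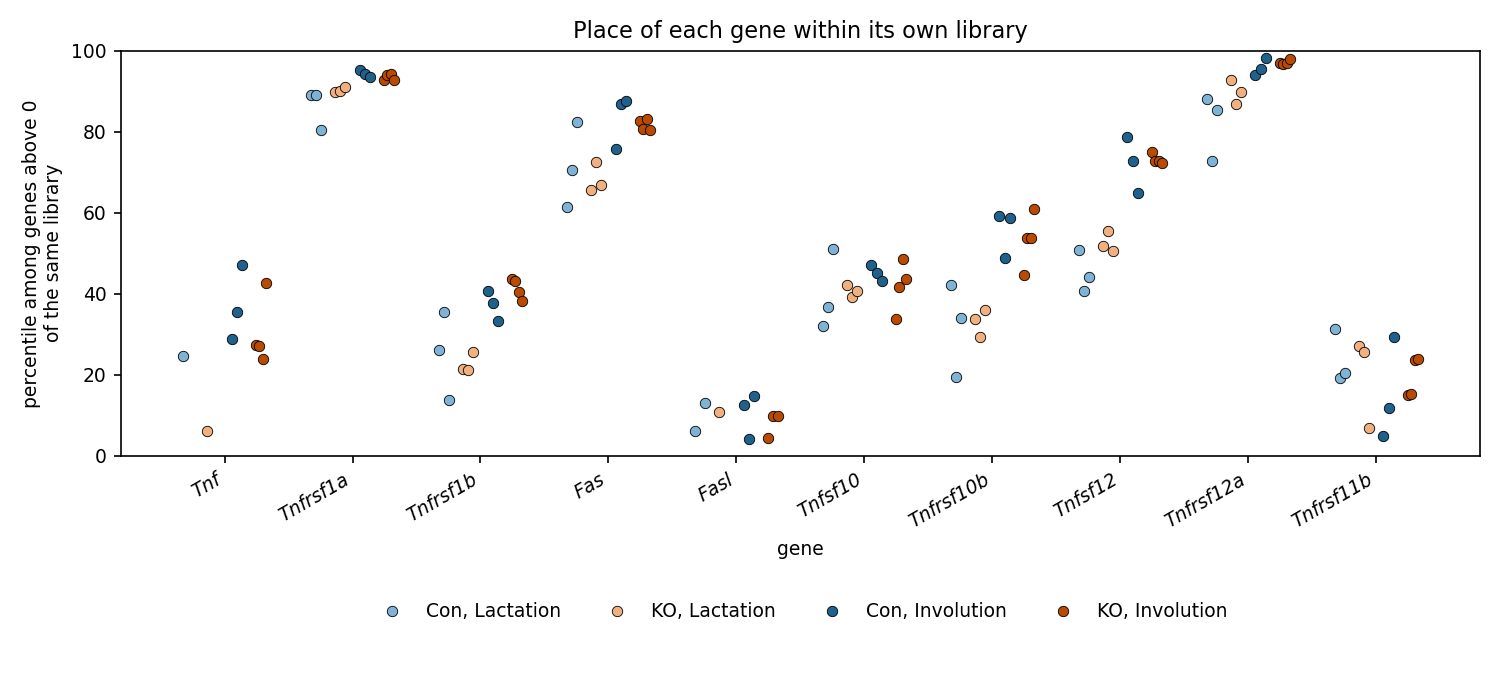
Percentile of each member among the genes above 0 in its own library, 1 point per library, coloured by genotype and stage. Tnfrsf12a, Tnfrsf1a and Tnfsf12 stand higher in every involution library than in any lactation library, also over a fixed set of genes, Tnfrsf10b only among the genes above 0 in each library, while Tnfsf10 covers the same range at both stages, and libraries in which Tnf or Fasl is listed at 0 have no point.

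Ratios of a receptor to its ligand within a library compare the pair free of scale. Tnfrsf10b over Tnfsf10, the TRAIL receptor over TRAIL, had a median of 0.573 at lactation (0.294 to 1.84) and of 1.88 at involution (1.23 to 2.56). The lactation value of 1.84, in the Con gland of mouse M42186, was the one that overlapped the involution range. Tnfrsf12a over Tnfsf12, FN14 over TWEAK, covered 4.69 to 14.9 in lactation glands and 4.03 to 36.6 in involution glands, so receptor and ligand kept overlapping ratios. The 2 TNF receptors, Tnfrsf1a over Tnfrsf1b, stood at 35.7 to 51.9 in Con and 21.3 to 31.9 in KO involution glands, without overlap. At lactation the same ratio was 19.1 to 70.0 in Con and 46.2 to 66.3 in KO, with overlap. The other ratios examined overlapped between genotypes at involution. Among them, Tnfrsf12a over Tnfrsf1a was 0.763 to 4.36 in Con and 1.80 to 4.13 in KO. Tnfrsf1a over Fas was 2.15 to 6.18 in Con and 2.74 to 3.56 in KO. All ratios were compared as ranges, and their differences were not tested, so no knockout effect is read from a single gap.

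The other genes of the family were read from 3 lists. Tnfsf13b, Tnfrsf23, Tnfrsf25 and Map3k14, named in the following, reached 1 FPKM in no lactation library and entered the stage test through involution alone, so their values are given without support for a rise. Of 14 other ligands, 3 could be tested between stages. Tnfsf13b, which encodes the B cell survival factor BAFF, was 0.71 ± 0.21 higher in KO (adjusted p = 0.0226), with 0.516 ± 0.264 FPKM at lactation (SD, n = 3) and 3.03 ± 0.969 at involution (SD, n = 4). That call was lost without the KO lactation library of mouse M44174 (adjusted p = 0.106) or M42734 (0.0719) or the KO involution library of mouse M43196 (0.0584) or M43767 (0.0611). In Con its difference was 0.57 (adjusted p = 0.0782). Tnfsf13, which encodes the related ligand APRIL, was not called in Con (-0.99, adjusted p = 0.124), where mouse M44175 alone read 93.8 FPKM at lactation and the others 15.0 and 22.4. Without the lactation library of mouse M42186 that value was -1.47 and passed (adjusted p = 0.0266), and without that of mouse M44175 it was -0.30 (adjusted p = 0.408). In KO it was -0.59 (adjusted p = 0.317) and passed with array weights (0.0471) or without the Con lactation library of mouse M44175 (0.0421), which enters through the shared spread. Ltb, the lymphotoxin gene of lymphoid cells, was not called in any comparison, and its Con lactation value of 14.3 FPKM in the library of mouse M43768 compares with 0.146 and 0.194 in the other 2. At involution Ltb was -0.39 (adjusted p = 0.940) and Tnfsf13b 0.30 (adjusted p = 0.943) in KO relative to Con.

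Of 22 other receptors, 12 were tested between stages: 2 were called higher and 1 lower in Con, and 4 higher and 1 lower in KO, beside 19.4% higher and 11.2% lower over all genes in Con and 22.2% and 12.5% in KO. With 12 tested, nothing is read from these counts. Tnfrsf21, which encodes death receptor 6, rose in Con by 1.29 (adjusted p = 5.46e-04) and in KO by 0.70 (adjusted p = 0.0120), a KO call lost without the KO lactation library of mouse M42734 (0.0523) or M43767 (0.0571). Tnfrsf11a, the RANK receptor of mammary epithelium and osteoclasts, rose in Con by 0.73 (adjusted p = 0.00634) and stood at 0.17 in KO (adjusted p = 0.432). The lymphotoxin receptor gene Ltbr rose in KO by 0.57 (adjusted p = 0.0190), a call lost without the KO lactation library of mouse M44174 (0.0671) or M43767 (0.0675). Its Con difference of 0.44 (adjusted p = 0.0767) passed without the lactation library of mouse M44175 (0.61, adjusted p = 0.00779). Tnfrsf23, a mouse decoy for TRAIL, was 0.75 higher in KO (adjusted p = 0.0106), lost without the KO lactation library of mouse M42734 (0.0535), and in Con it was 0.53 (adjusted p = 0.0701) and passed without the lactation library of mouse M42186 (0.00806). The death receptor gene Tnfrsf25 was 0.57 higher in KO (adjusted p = 0.0312), lost without any of the 3 KO lactation libraries (0.0530 to 0.111). Tnfrsf13b, a B cell receptor for BAFF and APRIL, was called lower in both genotypes, with -1.32 in Con (adjusted p = 0.00863) and -0.95 in KO (adjusted p = 0.0263). The gene reached 1 FPKM in 2 Con and 1 KO lactation libraries, and at involution in 1 KO library only. It thus entered the test mainly through lactation, and its values are given without support for a fall. It rests on 1 to 11 recovered fragments per library, and the KO call was lost without the KO lactation library of mouse M44174 or M43767 or the KO involution library of mouse M43196, M44176 or M44440 (0.0529 to 0.0940). With each table rescaled within itself it was -0.39 in KO (adjusted p = 0.227). The 2 other receptors with the smallest p between genotypes at involution were Tnfrsf21, at 33.1 ± 1.64 FPKM in Con (SD, n = 3) and 19.0 ± 3.76 in KO (SD, n = 4), and Tnfrsf11a, at 22.6 ± 1.48 and 15.4 ± 1.06. Both were chosen by smallest p, and their groups did not overlap, beside 6.81% of all genes with groups apart at involution. Neither passed adjustment, with -0.77 ± 0.17 (adjusted p = 0.317) and -0.50 ± 0.13 (adjusted p = 0.418). The difference of the effects between stages was -0.59 and -0.56 for them, each with an adjusted p of 1.0. At lactation the smallest p among these receptors belonged to Ltbr (-0.28) and Tnfrsf13b (-0.19), both with an adjusted p of 0.998.

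Of 33 genes that carry the signal inside the cell, all were tested between stages, and 6 were called higher and 3 lower relative to the typical gene in each genotype. These counts lie below the shares over all genes (19.4% and 11.2% in Con, 22.2% and 12.5% in KO), so the genes named are single values and nothing about the pathway. Tradd, the adaptor that binds the death domain of TNFR1, rose by 0.94 in Con (adjusted p = 0.00270) and 1.03 in KO (adjusted p = 9.39e-04). Map3k14, the kinase NIK of the noncanonical NF-kB pathway, was 0.81 (adjusted p = 0.00515) and 0.74 (adjusted p = 0.00526) higher. Tab1, a partner of the kinase TAK1, rose by 1.04 and 0.67, Tnip1, an inhibitor of NF-kB signalling, by 0.98 and 0.86, and Otulin, which removes linear ubiquitin chains, by 0.73 and 0.77, with adjusted p-values of 0.00526 to 0.0361. In KO the call of Tab1 was lost without any of the 3 lactation libraries and without the involution library of mouse M43196, M43767 or M44440 (0.0635 to 0.108), and that of Tnip1 sat at the threshold without the lactation library of mouse M42734 (adjusted p = 0.05). The genes that fell on this relative scale were Chuk, which encodes the kinase IKK alpha (-1.18 and -1.25), the deubiquitinase gene Cyld (-0.59 and -0.74) and Tab2 (-0.74 and -0.84), with adjusted p-values of 2.08e-04 to 0.0219. In Con the call of Tab2 was lost without the lactation library of mouse M42186 or M43768 or the involution library of mouse M44448 or M43914 (0.0589 to 0.0764). As deposited, Chuk averaged 12.1 ± 1.11 FPKM in Con at lactation (SD, n = 3) and 12.0 ± 1.56 at involution (SD, n = 3), so its fall is against the shift of the tables, and with each table rescaled within itself it was not called in Con (adjusted p = 0.999) or KO (0.637). Cyld and Tab2 changed sign when each table was rescaled within itself, to 0.47 for Cyld in Con and 0.29 in KO, and to 0.36 for Tab2 in KO.

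No signalling gene was called between genotypes. At lactation the smallest p among 30 tested belonged to the inhibitor of apoptosis genes Birc3 (-0.58 ± 0.21, KO and Con apart) and Birc2 (-0.55 ± 0.26), both with an adjusted p of 0.998. At involution it belonged to Ripk3, the kinase of necroptosis, with 0.53 ± 0.16 (adjusted p = 0.546), and to the adaptor gene Traf5, with 0.37 ± 0.13 (adjusted p = 0.599). Ripk3 averaged 2.40 ± 0.541 FPKM in Con (SD, n = 3) and 3.82 ± 0.498 in KO (SD, n = 4), and the groups did not overlap. Over all genes, 6.81% had groups apart at involution and 5.75% at lactation. Ripk3 and Birc3 were chosen by smallest p, so nothing is read from their gaps. For the difference of the effects between stages, the smallest p belonged to Traf5 (0.39) and Birc2 (0.62), each with an adjusted p of 1.0.

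The genes most like each tested member over the 13 libraries were found among 12666 other genes by Pearson's r, given as a description, since all libraries share their table, depth and stage. Tnfrsf1b was closest to the blood cell genes Fermt3 (r = 0.971) and Fcgr2b (r = 0.964), and Tnfrsf1a to Plbd2 (r = 0.976) and Rgma (r = 0.974). Tnfsf12 was closest to Dtnbp1 (r = 0.982) and Hs1bp3 (r = 0.979), and Tnfrsf12a to Zfand2a (r = 0.964) and Itpa (r = 0.952). Tnfrsf10b was closest to the basement membrane collagen gene Col4a5 (r = 0.956) and to Grrp1 (r = 0.950). Fas was closest to Aktip (r = 0.949) and Snora21 (r = 0.939), and Tnf to Stk36 (r = 0.944) and Ildr1 (r = 0.931). Tnfsf10 had the loosest neighbours, led by the cytotoxic granule gene Gzma (r = 0.855) and Tapt1 (r = 0.846).

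Several lists of cell type markers moved with the stage as well, on the deposited scale with its shift of 2.42-fold. Summed macrophage markers (7 of 8 listed genes had a row) were 51.3 to 72.8 FPKM in lactation glands and 203 to 652 in involution glands, and neutrophil markers (6 of 7) 1.49 to 6.11 and 34.8 to 404. Endothelial markers (6 of 6) ran from 15.3 to 36.8 and from 70.2 to 144, fibroblast markers (6 of 6) from 43.9 to 141 and from 175 to 803, and luminal epithelial markers (7 of 7) from 492 to 638 and from 1342 to 2228. Adipocyte markers (6 of 6) ran from 614 to 1815 and from 3359 to 11195. Rescaled to the typical gene, the macrophage sums were still apart, at 73.5 to 123 and 138 to 428, and so were the neutrophil sums, at 2.40 to 10.3 and 23.0 to 266. The neutrophil sums rested mainly on S100a8 and S100a9. As deposited at involution, S100a8 read 49.0 to 180 FPKM in Con and 23.4 to 216 in KO, while Mpo stayed at or below 0.0457 and 0.239. A gap in these sums is therefore not read as a change of the whole list. The adipocyte sums overlapped, at 1032 to 2598 and 2117 to 7659. So did the endothelial sums, at 21.8 to 62.2 and 46.2 to 94.8, and the fibroblast sums, at 70.8 to 230 and 114 to 528. Basal epithelial sums (7 of 7) overlapped on both scales, at 161 to 478 and 142 to 356 after rescaling. No fibroblast or basal marker was called between stages in either genotype. The luminal sums overlapped, at 822 to 1072 and 937 to 1465, with Elf5 alone at 276 to 434 FPKM as deposited across all libraries. Gene by gene, 5 of 7 luminal markers were called higher and 1 lower in Con and 4 higher and 1 lower in KO (median 1.22 and 1.14), against 4 and 5 of 7 macrophage markers higher (median 1.07 in both). Of 6 endothelial markers, 4 were called higher in Con, and 3 higher and 1 lower in KO. Of 5 tested neutrophil markers, 1 was called higher in Con and 2 in KO, and of 6 adipocyte markers 0 and 1. Over all genes, 19.4% were called higher in Con and 22.2% in KO. With lists this short, nothing is read from these counts. T and NK cell markers (7 of 8) overlapped between stages, with the highest sum in the lactation library of mouse M43768. The part of these cell types in the levels of Tnf, Tnfrsf1b or any other member was not tested.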

How the data were processed

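RNA of 13 mammary glands was sequenced on an Illumina HiSeq2000 from TruSeq libraries, per the labels' protocols. FPKM values were made by the authors with one deposited table per stage. The submitters' processing notes name CASAVA, cutadapt, TopHat and the mouse build mm9; how FPKM was computed, and whether strand was used, is not given in those sources. The members and gene lists were chosen with earlier results of these data known.

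Low values of both tables fell on whole-number ratios between libraries, for 64.7% of 45916 value pairs across tables, 70.9% of 27125 within lactation and 69.5% of 33942 within involution (tolerance 0.02 log2; 3.49% to 4.22% with shifted values). Gene lengths were therefore shared and the tables taken to differ by a factor per library, and median-of-ratios factors over all 13 libraries removed it; tests between stages rest on this. Whole relative fragments (tolerance 0.01) were recovered for 10420 of 14753 genes (70.6%) with a value above 0 in at least 10 libraries, and for 6 of the 10 members; the true numbers may be a multiple. FPKM is not a count, so no count model was used.

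A gene entered a fit if 3 or more of its libraries reached 1 FPKM, and was tested on log2(rescaled FPKM + 1) with limma 3.58.1 (R 4.3.3, moderated with an intensity trend, two-sided), within the 6 lactation libraries, within the 7 involution libraries, and over all 13 in one model with 4 groups for stages and for the difference of the knockout effects. P-values were adjusted by Benjamini-Hochberg over all genes tested, with a threshold of 0.05. The fits were tested on simulated data. Named genes were all members; up to 6 genes of each of the 3 family lists per comparison past the threshold by smallest p, or otherwise the 2 of smallest p; and the 2 genes most correlated with each tested member. Alternatives were a constant of 0.1, no filter, quantile normalization, scaling to the total outside milk proteins and short RNA, array weights, tables rescaled within themselves, the mouse number as a block, and leaving out each library.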

Additional observations from a re-analysis of the deposited data

Results flagged for a closer look

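In the KO involution group of 4 glands, Tnfsf12 of mouse M43196 read 15.6 FPKM, and the other 3 glands lay between 12.5 and 12.9. The gap was 0.891 of the group's range, above Dixon's 95% critical value. That holds for FPKM as deposited. After rescaling over all 13 libraries, mouse M43196 read 10.2 and the others 8.90, 8.49 and 8.49, a narrower gap that was not examined as a flag. It was 1 of 10 such groups examined, and chance alone sets about 1 in 20 apart. That library had the fewest fragments per FPKM at involution, at 0.485 of the mean of that table. Its total of 1367558 FPKM was the highest, with 44.0% of it from Mir6236. It also had the highest summed macrophage markers (652 FPKM) and neutrophil markers (404 FPKM). The part of these features in the value was not tested.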

How the results depend on the processing

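Leaving out a library fits fewer samples; for the other changes the cause was not tested. For counts of called genes, KO minus Con at lactation gave 2 genes with the constant at 0.1, 2 with scaling to the total and 9 with array weights, and 0 to 3 with a library left out (1 as reported; 0 without any 1 of the KO libraries, 2 without mouse M42186, 3 without mouse M44175). At involution it gave 20 with array weights and 2 to 9 with a library left out (9 as reported; 2 without the Con library of mouse M44448 or M43768, 3 without M43914, 6 without the KO library of mouse M43767). The difference of the knockout effects gave 14 with array weights, and 5 to 9 with a library left out (9 as reported; 5 without the Con involution library of mouse M44448 or M43768). The stage count in Con (3870 as reported) became 10071 with tables rescaled within themselves and ran from 2555 to 3865 with a library left out (2555 without the involution library of mouse M43768), and that in KO (4396) became 10494 with tables rescaled within themselves. That setting leaves the table factor in by construction, with 9775 higher and 296 lower in Con, and 10196 and 298 in KO. Quantile normalization turned the split from 2454 higher and 1416 lower to 1626 and 1989 in Con, and from 2811 and 1585 to 1875 and 2404 in KO. The median stage difference over all genes in Con was 0.17 as reported, -0.02 with quantile normalization, 0.35 with scaling to the total and 1.07 with tables rescaled within themselves.

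No member was called between genotypes under any alternative listed. Signs of small differences turned as follows. For KO minus Con at lactation, Tnfsf10 was -0.054 with quantile normalization and -0.11 to 0.24 with a library left out, Fas -0.70 to 0.10, and Tnfsf13 0.052 with array weights and -0.83 to 0.35. At involution, Tnfsf12 was -0.034 with array weights and -0.22 to 0.24 with a library left out, Tnfrsf10b -0.32 to 0.010, and Tnfrsf12a -0.071 (without the Con library of mouse M44448) to 1.02 (without the Con library of mouse M43914). For the difference of the effects, Tnf was 0.13 with the constant at 0.1, 0.26 with array weights and -0.38 to 0.15 with a library left out. Fas was -0.070 with scaling to the total, -0.22 with array weights and -0.31 to 0.52, and Tnfsf13 -0.046 with array weights and -0.31 to 0.87. With a library left out, Tnfrsf10b was -0.46 to 0.10, Tnfrsf12a -0.81 to 0.25 and Ltb -0.51 to 1.67.

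Between stages, Tnfsf10 was -0.077 in Con with quantile normalization, and in KO 0.018 with scaling to the total, 0.81 with tables rescaled within themselves (adjusted p = 0.00316) and -0.12 to 0.13 with a library left out. With tables rescaled within themselves Cyld was 0.47 in Con and 0.29 in KO, Tab2 0.36 in KO and Tnfsf13 0.26 in Con. Tnf lost its call with quantile normalization in both genotypes (adjusted p = 0.124 and 0.185), in Con also with array weights (0.0842) and in KO without the filter (0.0510). Fas became called in Con and KO with scaling to the total (adjusted p = 0.0286 and 0.0285) and with array weights (0.00786 and 0.0157), and Tnfrsf1a in KO with array weights (0.00561). Scaling to the total ended the calls of Cyld in Con (0.287), Tab2 in Con (0.312) and KO (0.0827), and, in KO, Tab1 (0.0994), Tnip1 (0.0528) and Tnfrsf25 (0.0618). Quantile normalization ended, in KO, those of Tnfsf13b (0.146), Tnfrsf25 (0.317), Tnfrsf23 (0.0558) and Tab1 (0.0898). The place of members over a fixed set of genes was added after seeing the data.

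Mouse numbers M43768 (Con) and M43767 (KO) stand at both stages, while the design text counts 13 mice. The main fit did not use the number as a pairing. Deviations of the same-numbered libraries correlated at 0.0245 and 0.0376, while the fit with the number as a block estimated a correlation of 0.712. These estimates differ widely, so whether the libraries are paired was not settled. With the block, 19 genes were called for the difference of the effects and 5872 for the stage in Con. In that fit with the block the difference of the effects was 0.10 for Tnf and -0.10 for Fas, and Fas passed the stage threshold in both genotypes (adjusted p = 0.0158 and 0.0206) as did Tnfrsf1a in KO (0.0141).

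Depth limits Fasl and Tnfrsf11b, with at most 5 and 39 recovered fragments.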
